A study of Mus musculus with 6 samples.

Results

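The POU transcription factor family was followed in mouse embryonic stem cells leaving the naive state under FGF2. The family here means 9 genes, Pou5f1, Pou3f1, Pou3f2, Pou3f3, Pou2f1, Pou2f2, Pou2f3, Pou4f2 and Pou6f1, taken by symbol from the 51912 genes in the authors' count table. Other POU genes of the mouse genome, among them Pou1f1, Pou3f4, Pou4f1, Pou4f3 and Pou5f2, were read beside them. R1, an established mouse embryonic stem cell line, had been kept in 2iLIF, a medium that holds naive pluripotency with inhibitors of MEK and GSK3 and the cytokine LIF. The cells were then moved to the serum-free medium N2B27 with FGF2 (100 ng/ml). The study sequenced 3 messenger RNA libraries taken at 24 h and 3 taken at 48 h, so both groups share the line, the medium and the growth factor and differ in time. Cells in 2iLIF and cells in N2B27 without FGF2 were not analysed here, so an effect of FGF2 and an effect of time in the new medium cannot be told apart.

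POU proteins bind DNA through a pair of linked domains, the POU-specific domain and the POU homeodomain, which together recognise the octamer ATGCAAAT and related sites. Pou5f1 encodes OCT4, a core factor of pluripotency that works with SOX2. Pou3f1 encodes OCT6, a class III factor of the epiblast and the early neural lineage, and Pou2f1 encodes OCT1, which is present in most cell types. The other members are known mainly from differentiated cells: Pou2f2 from B cells, Pou2f3 from tuft cells and epidermis, Pou3f2, Pou3f3 and Pou6f1 from the nervous system, and Pou4f2 from retinal ganglion cells.

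The bases before the transcription start are shown for 3 members with different courses: Pou5f1, which held its level to within a few per cent, Pou2f1, the second abundant member at 24 h, and Pou4f2, which fell. Each run is the 250 bases before the RefSeq start on GRCm38.p6, written 5′ to 3′ on the gene's own strand. They lie at chr17:35505782-35506031 (plus strand) for Pou5f1, chr1:166002635-166002884 (minus strand) for Pou2f1 and chr8:78436648-78436897 (minus strand) for Pou4f2. Capitals mark the nuclear receptor motif AGGTCA and the GC box GGGCGG, searched on both strands with overlapping matches merged.
Pou5f1: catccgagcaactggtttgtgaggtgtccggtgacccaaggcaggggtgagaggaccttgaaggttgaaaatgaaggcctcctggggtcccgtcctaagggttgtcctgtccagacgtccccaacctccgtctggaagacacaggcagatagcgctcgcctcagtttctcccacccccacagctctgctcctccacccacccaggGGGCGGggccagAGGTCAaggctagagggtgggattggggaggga
Pou2f1: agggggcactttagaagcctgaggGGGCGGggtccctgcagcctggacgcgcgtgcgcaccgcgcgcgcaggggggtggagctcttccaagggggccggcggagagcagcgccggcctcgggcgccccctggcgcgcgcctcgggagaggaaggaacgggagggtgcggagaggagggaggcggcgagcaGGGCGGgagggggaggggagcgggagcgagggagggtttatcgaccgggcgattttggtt
Pou4f2: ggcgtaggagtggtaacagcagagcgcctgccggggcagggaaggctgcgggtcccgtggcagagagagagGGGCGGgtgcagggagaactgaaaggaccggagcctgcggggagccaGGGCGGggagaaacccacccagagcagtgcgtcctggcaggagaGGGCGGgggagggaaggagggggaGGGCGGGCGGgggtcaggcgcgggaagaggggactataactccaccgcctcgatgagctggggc

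The Pou5f1 window held 1 AGGTCA, beginning 33 bases before the start, and 1 GC box beginning 45 bases before it. The Pou2f1 window held 2 GC boxes and the Pou4f2 window 5, and neither held AGGTCA. Among all 32851 RefSeq windows of this length, 14.0% held AGGTCA and 32.7% a GC box on either strand. The octamer ATGCAAAT was in 1.6% of all windows and in none of the 7 member windows. Besides those printed, these were the windows of Pou3f2, Pou3f3, Pou2f2 and Pou6f1. The RefSeq start used for Pou2f2, at 25132460, lies inside the gene as GENCODE M21 annotates it (25087344 to 25179726, minus strand). That window is therefore not upstream of the whole gene. The Pou6f1 window held the first 7 bases of the octamer on the strand opposite to the gene's own, and 4.12% of all windows held them on either strand. CpG dinucleotides also differed: 8 in the Pou5f1 window (0.33 of the number its base composition gives), 17 for Pou4f2 (0.64) and 29 for Pou2f1 (0.96). These matches describe the letters of the windows and were not tied to binding.

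The 6 libraries held between 19574969 and 23133148 estimated counts. Levels are given as CPM, the count relative to the library total after TMM scaling, and changes as the log2 fold change of 48 h over 24 h. Calls rest on edgeR's quasi-likelihood test of 14889 genes, with a Benjamini-Hochberg adjusted p below 0.05. All 10 listed markers of pluripotent stem cells were detected at both times, with a summed level between 4016 and 4086 CPM at 24 h and between 4777 and 4800.1 CPM at 48 h. Of these, 5 were called as higher and 5 as lower at 48 h (30.9% and 31.9% of all tested genes). Dnmt3b went from a mean of 137.0 to 1390 CPM and Nanog from 694.7 to 174.4 CPM, so the sum does not stand for each marker. It also contains the member Pou5f1, at a mean of 1111 CPM at 24 h and 1058 CPM at 48 h. Nothing in the labels says that the replicates were separate cultures, so p-values measure the spread between these libraries, which may be technical.

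All 9 members passed the filter on low counts, and 8 were called: 3 rose (Pou3f1, Pou2f2 and Pou2f1) and 5 fell (Pou5f1, Pou3f2, Pou3f3, Pou2f3 and Pou4f2). Among all tested genes 62.8% were called, 30.9% as higher and 31.9% as lower at 48 h. The members' median log2 fold change was -0.07, and that of all tested genes was -0.01. Members thus moved both ways, as did tested genes at large. Pou3f1 rose, and its class III relatives Pou3f2 and Pou3f3 fell. These 2 had at most 55 counts in a library, and their falls were not called in every alternative fit. For 8 of the 9 members the 24 h and 48 h values were fully separate, which held for 66.9% of all tested genes.

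**Figure D1:**
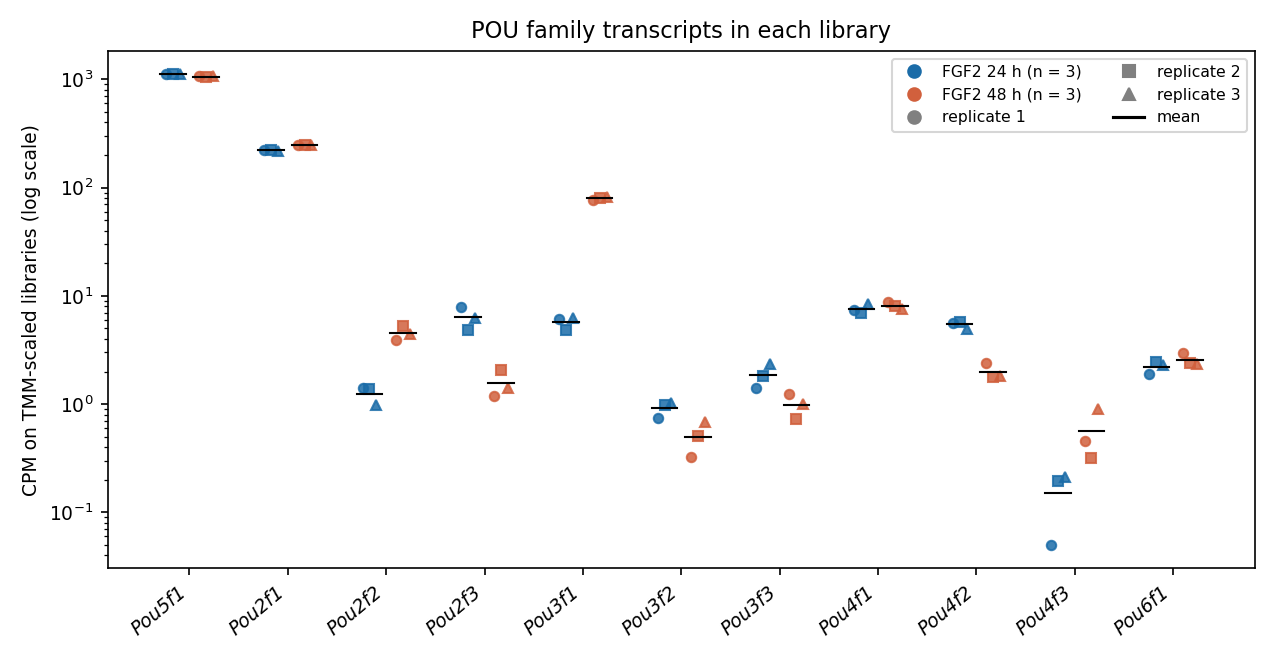
CPM on TMM-scaled libraries (log axis) of the 9 members, Pou4f1 and Pou4f3; blue is FGF2 24 h, orange FGF2 48 h, the marker shape gives the replicate and the black line the group mean (n = 3). Pou5f1 stays between 1041 and 1113 CPM, while Pou3f1 goes from between 4.79 and 6.23 CPM to between 77.0 and 81.1 CPM.

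Pou5f1 (ENSMUSG00000024406; chromosome 17, 35506018 to 35510772) was the most abundant POU transcript in every library. Its level was 1113, 1109 and 1111 CPM at 24 h and 1069.9, 1041 and 1064 CPM at 48 h. Every 48 h library lay below every 24 h library, by a small amount: the 48 h mean was 0.952 times the 24 h mean. The log2 fold change was -0.07 (standard error 0.02, adjusted p = 0.000662), with a 95% interval from -0.10 to -0.04. The whole interval is smaller in size than a 1.2-fold change (0.26 on the log2 scale), and a test against that fold gave an adjusted p of 1.0. With library size as the only scaling the value was -0.13. A change this small was called for few genes: 2296 genes had a log2 fold change no larger in size than that of Pou5f1, and 116 of them were called.

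Pou3f1 (ENSMUSG00000090125; chromosome 4, 124656807 to 124660655) showed the largest change of the family. It had 123, 98 and 147 counts at 24 h, or 6.16, 4.79 and 6.23 CPM. At 48 h it had 1674, 1766 and 1799 counts, or 77.0, 80.7 and 81.1 CPM. Every 48 h library was far above every 24 h library, and the 3 libraries of each time lay close together. The log2 fold change was 3.79 (standard error 0.06, 95% interval from 3.66 to 3.93, adjusted p = 3.26e-17), a 13.9-fold rise of the mean. Of all tested genes, 31 (0.208%) rose by at least as much.

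Within each library Pou3f1 had 0.553, 0.431 and 0.561 counts per 100 Pou5f1 counts at 24 h, and 7.20, 7.75 and 7.63 at 48 h. The log2 ratio rose by 3.88, from -7.61 ± 0.21 to -3.73 ± 0.06 (SD, n = 3 at each time). The groups did not overlap. An exact two-sided permutation of the libraries returned p = 0.1, which is the lowest that 3 against 3 can reach. A ratio within a library does not depend on the scaling between libraries. Per kilobase of the longest coding transcript (3849 bases for Pou3f1, 1362 for Pou5f1), Pou3f1 stood at between 2.55 and 2.74 per 100 Pou5f1 at 48 h. Pou5f1 thus remained the more abundant transcript in every library on either scale.

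The 2 class III relatives moved the opposite way at low levels. Pou3f3 (ENSMUSG00000045515), a neural factor, had 28, 37 and 55 counts at 24 h and 27, 16 and 22 at 48 h, or between 1.40 and 2.33 CPM against 0.731 to 1.24 CPM. The groups lay close together without overlapping, and the log2 fold change was -0.91 (standard error 0.27, adjusted p = 0.00748). Without replicate 3 of 24 h, the highest library, it was -0.70 and was not called (adjusted p = 0.0597). Pou3f2 (ENSMUSG00000095139), which encodes BRN2, had 15, 20 and 24 counts at 24 h and 7, 11 and 15 at 48 h. Its log2 fold change was -0.87 (standard error 0.34, 95% interval from -1.59 to -0.14, adjusted p = 0.0367). That call was lost without replicate 2 of 24 h (-0.82, adjusted p = 0.094), replicate 3 of 24 h (-0.78, 0.115), replicate 1 of 48 h (-0.63, 0.154) or replicate 2 of 48 h (-0.87, 0.0822), and with DESeq2 (-0.86, 0.125). Both kept a negative sign in every fit that tested them.

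Pou3f4, the remaining class III gene, was untested at 0 to 3 counts per library. Pou3f1 thus held 73.2%, 62.8% and 64.2% of class III counts at 24 h and 97.9%, 98.5% and 97.9% at 48 h. Pou3f1, Pou3f2 and Pou3f3 each have a single exon in GENCODE M21, and the values of all 15 POU genes were whole numbers, so no fraction of a read was assigned to any of them. Strand use in the counting is not given in the sources used here. The antisense genes that overlap exons of Pou3f1 and Pou5f1 (Gm2164 and Gm19553) had at most 5 and 13 counts in a library, and Cd247, which shares 3007 exon bases with Pou2f1 on the opposite strand, had at most 8. Pou3f2 and Pou3f3 overlapped no exon of another gene.

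Class II, the OCT1 group, divided: Pou2f1 and Pou2f2 rose and Pou2f3 fell. Pou2f1 (ENSMUSG00000026565) was at 222.2, 221.9 and 217.2 CPM at 24 h and at 246.2, 249.5 and 247.8 CPM at 48 h. The rise was small and the libraries of each time lay close together: the log2 fold change was 0.17 (standard error 0.02, 95% interval from 0.13 to 0.21, adjusted p = 1.88e-06), below a 1.2-fold change. With library size as the only scaling it was 0.11 and still called. Pou2f2 (ENSMUSG00000008496), the B cell factor OCT2, rose from 28, 28 and 23 counts to 85, 114 and 98 counts. Its mean went from 1.248 ± 0.237 to 4.51 ± 0.654 CPM (SD, n = 3), and the log2 fold change was 1.86 (standard error 0.19, adjusted p = 2.01e-07).

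Pou2f3 (ENSMUSG00000032015), the tuft cell and epidermal factor, went the other way. Its level was 7.86, 4.88 and 6.19 CPM at 24 h and 1.197, 2.06 and 1.40 CPM at 48 h. The lowest 24 h library was still above the highest 48 h library, and the log2 fold change was -2.02 (standard error 0.20, adjusted p = 2.27e-07). At 24 h there were between 15.8 and 28.0 Pou2f2 counts per 100 Pou2f3 counts, and at 48 h between 253.3 and 326.9. Per kilobase of the longest coding transcript, Pou2f2 stood at between 5.80 and 10.3 per 100 Pou2f3 at 24 h and at 120.3, 93.2 and 116.3 at 48 h. By this length, Pou2f3 was thus ahead in every 24 h library and still ahead in replicate 2 of 48 h. The 48 h order depends on the length used for Pou2f2, which has 10 annotated transcripts.

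Other markers of the cell types in which Pou2f2 and Pou2f3 are best known were low. The 5 B cell markers summed to between 1.602 and 2.10 CPM at 24 h and between 1.09 and 1.66 CPM at 48 h. Neither of the 2 tested, Cd79a and Pax5, was called. Cd79b, which was not tested, had 11, 14 and 10 counts at 24 h and 5, 1 and 1 at 48 h. Pou2af1, the B cell coactivator of OCT1 and OCT2, had 1 count in 1 library and none in the others. The 5 tuft cell markers summed to between 1.92 and 2.81 CPM over all libraries. Of these Gnat3 was at 0 in every library, and of the 2 tested, Dclk1 rose and Ptgs1 fell. In bulk RNA, fewer cells of a type and less RNA per cell cannot be told apart.

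Class IV, the BRN3 factors of sensory and retinal neurons, also divided. Pou4f2 (ENSMUSG00000031688) was at 5.61, 5.76 and 4.96 CPM at 24 h and 2.39, 1.78 and 1.80 CPM at 48 h. The groups were well apart, and the log2 fold change was -1.44 (standard error 0.15, adjusted p = 3.24e-07). Pou4f1, not a member, was at 7.59 ± 0.72 and 8.12 ± 0.56 CPM (SD, n = 3) with overlapping values, and its log2 fold change of 0.09 had a 95% interval from -0.12 to 0.31 (adjusted p = 0.443). Per kilobase of the longest coding transcript, Pou4f1 stood at 95.2, 87.4 and 122.0 per 100 Pou4f2 at 24 h and at between 262.0 and 327.1 at 48 h. Neither gene was ahead in all 24 h libraries, and Pou4f1 was ahead in all 48 h libraries. Pou4f3, known from hair cells of the inner ear, had 1, 4 and 5 counts at 24 h and 10, 7 and 20 at 48 h, and did not pass the filter on low counts. With the filter removed, its log2 fold change was 1.81 (adjusted p = 0.00406). Of the 7 markers of sensory and retinal ganglion neurons 6 were tested, of which 2 rose and 3 fell. Rbpms made up most of their summed level of 238.9 to 260.3 CPM, at 154.7 ± 1.19 CPM at 24 h and 196.3 ± 1.49 CPM at 48 h (SD, n = 3). The part of such cells in the fall of Pou4f2 was not tested.

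Pou6f1 (ENSMUSG00000009739), a class VI gene of the nervous system, was the 1 member not called. It was at 1.902, 2.44 and 2.29 CPM at 24 h and 2.99, 2.38 and 2.35 CPM at 48 h, and the groups overlapped. Its log2 fold change was 0.21 with a 95% interval from -0.17 to 0.59 (adjusted p = 0.311), which does not exclude a change of that size. Pou1f1, the pituitary factor, had 1 count in 1 library. Pou5f2, a class V gene of male germ cells, was at 0 in all 6, where 3 counts correspond to between 0.127 and 0.150 CPM.

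**Figure D2:**
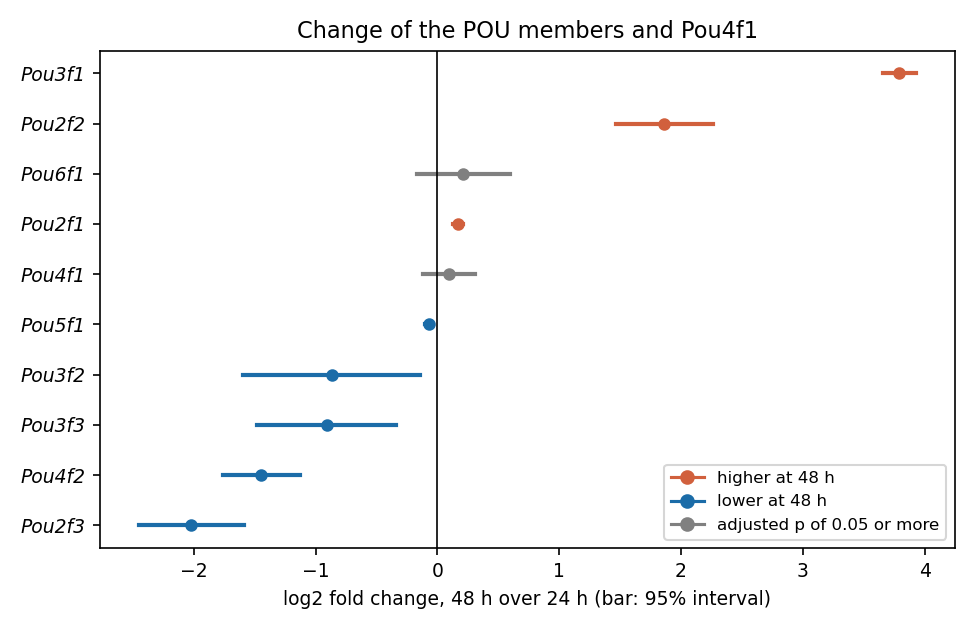
Log2 fold change of 48 h over 24 h (x axis) of the 9 members and Pou4f1, with the 95% interval as a bar; orange genes rose, blue genes fell and grey genes had an adjusted p of 0.05 or more. The values run from -2.02 for Pou2f3 to 3.79 for Pou3f1, and the interval of Pou5f1 spans only -0.10 to -0.04.

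Summed over all 15 POU genes, the level was 1364 ± 4.62 CPM at 24 h and 1409.9 ± 12.4 CPM at 48 h (SD, n = 3). Without Pou5f1 it was 252.75 ± 2.82 and 351.6 ± 3.16 CPM. Pou5f1 held 81.3%, 81.5% and 81.6% of the family's counts at 24 h and 75.4%, 74.6% and 75.1% at 48 h. Pou2f1 went from a mean of 16.2% to 17.6%, and class III from 0.629% to 5.76%. The other groups each stayed under 1% at both times. These shares are described without a test, since the members define them.

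**Figure D3:**
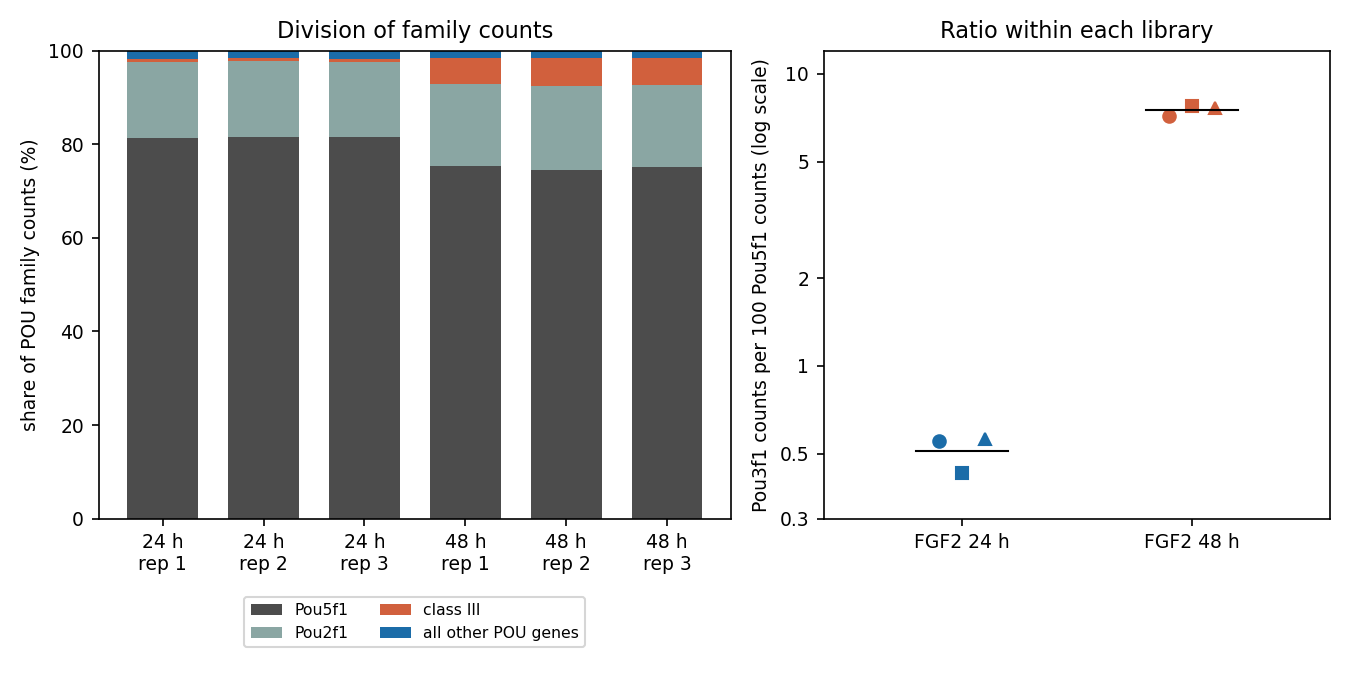
Left, share of all POU family counts (%) in each of the 6 libraries, stacked as Pou5f1, Pou2f1, class III and all other POU genes; right, Pou3f1 counts per 100 Pou5f1 counts (log axis), where circles, squares and triangles are replicates 1, 2 and 3 and the line is the geometric mean. Pou5f1 holds between 81.3% and 81.6% at 24 h and between 74.6% and 75.4% at 48 h, and class III grows to between 5.55% and 5.87%.

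Levels of different genes can be compared only per length. Per kilobase of the longest coding transcript, Pou5f1 led at both times, at 815.9 ± 1.46 CPM per kilobase at 24 h and 777.0 ± 11.1 at 48 h (SD, n = 3). At 24 h Pou2f1 followed at 16.9 ± 0.21, and then Pou2f3, Pou4f1, Pou4f2 and Pou3f1 at between 1.49 and 2.42, neighbours whose values overlapped. At 48 h Pou3f1 followed Pou5f1 at 20.7 ± 0.59 and Pou2f1 came next at 19.0 ± 0.12, without overlap. Below Pou4f1, the 48 h values of Pou2f2, Pou4f2, Pou2f3 and Pou6f1 lay between 0.519 and 0.636 and overlapped from each neighbour to the next. The order of Pou3f1 and Pou2f1 at 48 h depends on the length used for Pou2f1, which has 18 annotated transcripts. With the median length of coding transcripts Pou2f1 held 5.70% of the family per length and Pou3f1 1.07%. The place of Pou2f2 at 48 h likewise depends on the length used for it.

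The 3 genes whose course over the 6 libraries was most like that of Pou3f1 were Kif21a, Foxi3 and Wt1. Likeness was the Euclidean distance between log2 CPM values centred on each gene's mean, over the 10428 genes whose mean reached 5 CPM. Kif21a, a kinesin motor, was nearest at a distance of 0.26 and went from between 8.20 and 8.61 CPM to between 113.0 and 120.3 CPM. Foxi3 and Wt1, both transcription factors, followed at 0.45 and 0.46. For Pou5f1 the nearest were Slc25a3, the mitochondrial phosphate carrier, at 0.02, and Dennd6a and Rfwd3, also at 0.02. With 2 groups such likeness rests mostly on the change between the times.

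Genes that work with or act on POU factors were read from lists. Beside each list stand all tested genes, of which 30.9% were called as higher and 31.9% as lower. Their median log2 fold change was -0.01. The transcription factor list holds 14 genes, SOX partners of OCT4 and OCT6 among them, and 13 were tested: 8 rose, 5 fell and the median log2 fold change was 0.22. Sox2, the main partner of OCT4, was at 402.8 ± 7.27 CPM at 24 h and 311.6 ± 5.66 CPM at 48 h (SD, n = 3), and its log2 fold change was -0.37 (standard error 0.02). Its close relatives Sox3 and Sox1 rose, with log2 fold changes of 2.14 and 1.31, Sox11 by 1.61, and Otx2, an epiblast and anterior neural homeobox factor, by 1.74. Nanog, Esrrb, Klf4 and Sox15, all expressed in naive cells, had log2 fold changes of -1.99, -1.47, -2.17 and -1.82. The adjusted p-values of these 9 genes were at most 4.76e-08.

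Of the 12 listed regulators of the Pou5f1 gene, 10 were tested, 5 rose and 5 fell, with a median of -0.03. The nuclear receptor NR5A2 is known to activate Pou5f1 through its proximal promoter, and NR6A1 to repress it there. Nr5a2 was at 87.5, 82.9 and 86.0 CPM at 24 h and 26.8, 27.5 and 28.0 CPM at 48 h (log2 fold change -1.64, standard error 0.04, adjusted p = 1.85e-15). Nr6a1 was at 82.3, 82.1 and 77.9 CPM at 24 h and 172.9, 181.0 and 170.7 CPM at 48 h (log2 fold change 1.12, standard error 0.03, adjusted p = 1.57e-14). The groups did not overlap for either receptor, and Pou5f1 itself had a log2 fold change of -0.07. Foxd3 rose by 1.08, and Nr2f1 and Nr2f2, both under 3 CPM, had log2 fold changes of -1.40 and -2.02. Tcf7l1 and Ehmt2, each with a log2 fold change of 0.08, were not called with library size as the only scaling (0.02 for each, adjusted p = 0.590 and 0.542). The call of Tcf7l1 was also lost without replicate 1 or 3 of 24 h (0.06 for each, adjusted p = 0.0588 and 0.0571). That of Ehmt2 was lost without replicate 1 or 2 of 24 h (0.07 and 0.06, adjusted p = 0.0712 and 0.111) and without replicate 1 or 2 of 48 h (0.08 for each, adjusted p = 0.0527 and 0.0501). Rara, at -0.13, lost its call with DESeq2 (-0.12) and without replicate 2 of 24 h (-0.09) or replicate 1 or 2 of 48 h (-0.12 and -0.09). Rxra, at -0.16, lost its call with DESeq2 (-0.16) and without replicate 3 of 24 h or replicate 2 of 48 h (-0.15 for each). These losses had adjusted p-values from 0.0604 to 0.161.

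Genes listed as targets of SOX-OCT elements, at which OCT4 and SOX2 bind side by side, divided as well. The elements of each gene were not examined here. Of 11 listed, 10 were tested, 4 rose and 6 fell, and the median was -0.47. Fgf4 rose by 0.30, Dppa4 by 0.37, Upp1 by 0.48 and Utf1 by 0.60 on the log2 scale, and Utf1, a chromatin protein of pluripotent cells, went from 201.6 ± 5.98 to 304.8 ± 6.52 CPM (SD, n = 3). Those that fell were Sox2, Fbxo15, Zfp42, Spp1, Lefty1 and Nanog, with log2 fold changes from -0.37 to -1.99. Sox2 and Nanog also count in the list of partners. Zfp42, which encodes the naive cell marker REX1, went from 1034 ± 9.10 to 494.6 ± 23.7 CPM.

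Among 12 neural genes known downstream of class III POU factors, 9 were tested, 5 rose and 3 fell, and the median was 1.31. Dll1, a Notch ligand gene with a POU site in its enhancer, was at 3.60, 3.27 and 2.84 CPM at 24 h and 52.6, 54.3 and 54.7 CPM at 48 h (log2 fold change 4.06, standard error 0.07, adjusted p = 4.29e-17). Zeb2, a zinc finger repressor of the neural lineage, rose by 2.99, Zic1 by 1.86, Pax6 by 1.56 and Sox1 by 1.31. Zfp521, Sox2 and Nes, an intermediate filament of neural progenitors, had log2 fold changes of -0.86, -0.37 and -0.19, and Nes lost its call without replicate 2 or 3 of 48 h (-0.14 and -0.16, adjusted p = 0.0949 and 0.0652). Neurog2 and Fabp7 had too few counts to test, and Crh was at 0.

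Of the genes listed as POU coactivators 2 were tested, and both were called as higher. Hcfc1, whose product joins OCT1 in the VP16 complex of herpes infection, rose by 0.30 on the log2 scale, and Ubn2 by 0.32. Whether Ubn2 acts with POU factors was not examined here, so its place in the list is not established. The median size of the log2 fold change over all tested genes was 0.26. SNAPc is the complex that OCT1 recruits to small nuclear RNA genes. Of its 5 subunit genes Snapc3 rose by 0.34 (adjusted p = 0.000105) and Snapc4 by 0.12 (adjusted p = 0.0483), and 3 were not called. Of those 3, Snapc2 (-0.12) was called as lower with library size as the only scaling (-0.18, adjusted p = 0.0153). The same held without replicate 1 of 24 h (-0.16, adjusted p = 0.0446). The call of Snapc4 was lost in 8 alternative fits, among them library size as the only scaling (0.06, adjusted p = 0.305) and leaving out replicate 1 or 3 of 24 h or replicate 1 or 2 of 48 h (0.09, 0.12, 0.11 and 0.09, adjusted p from 0.115 to 0.187).

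**Figure D4:**
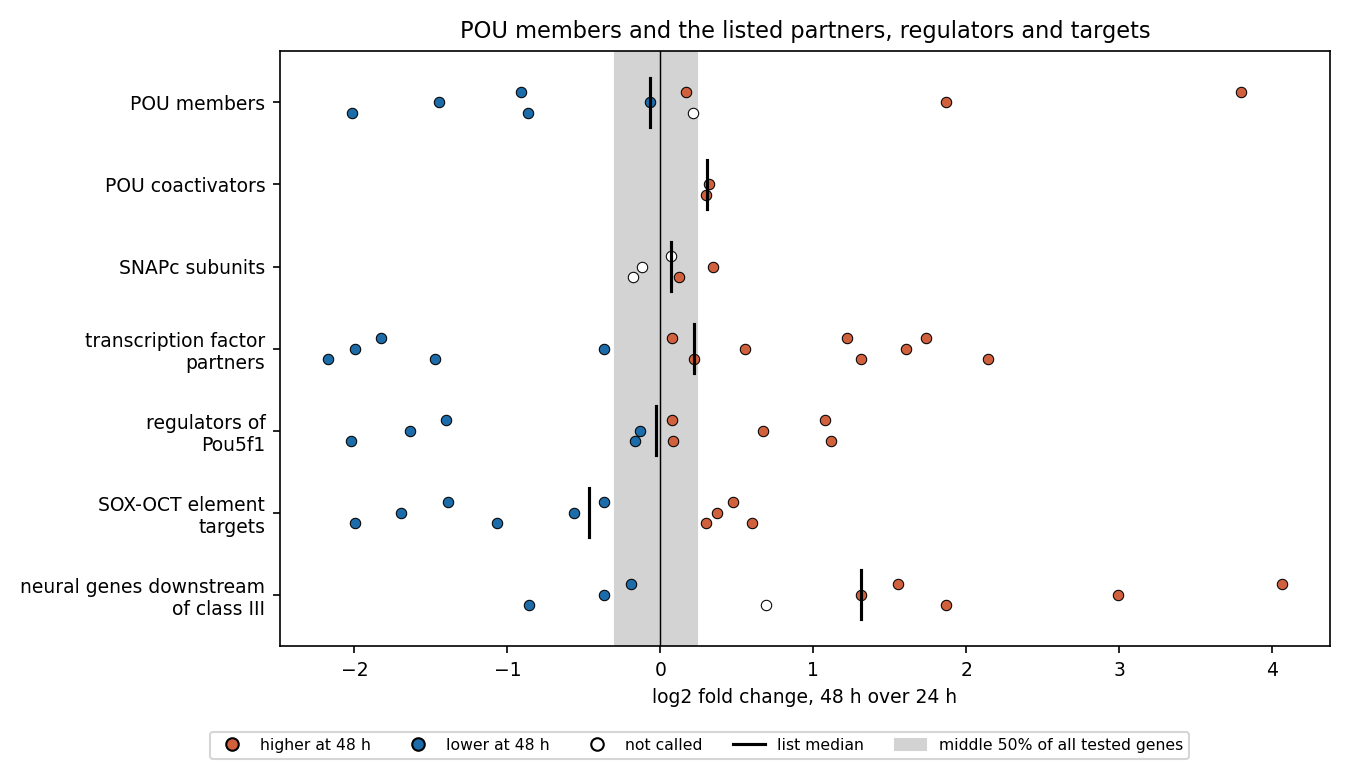
Log2 fold change of 48 h over 24 h (x axis) of each tested gene in the family and in 6 lists (rows); orange genes rose, blue genes fell, white genes were not called, the black tick is the list's median and the grey band the middle 50% of all tested genes, from -0.30 to 0.24. The medians run from -0.47 for SOX-OCT targets to 1.31 for the neural genes.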

How the data were processed

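Messenger RNA of 6 libraries of R1 mouse embryonic stem cells was sequenced, 3 per time, at FGF2 24 h and 48 h. Values in the deposited table are estimated counts of each gene, which the authors made with RSEM and did not scale for depth or length. cutadapt 1.9.1, STAR 2.5.2, RSEM 1.3.0 and build GRCm38 are named in the submitters' processing notes. The annotation, strand use and filters are not given in the sources used here. Each column name was identical to a sample title.

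Estimated counts were rounded. Symbols matched 51633 of 51912 genes (the rest held at most 0.05% of counts). edgeR 4.0.16 (R 4.3.3) kept 14889 genes with filterByExpr, scaled by TMM and fitted group alone (glmQLFit, glmQLFTest), with Benjamini-Hochberg adjustment. A standard error is the size of the log2 fold change over the square root of F. Promoter windows came from RefSeq (GRCm38.p6), matched by symbol for 7 of 9 members. Pou3f1 and Pou2f3 were not matched. Gene positions and transcript lengths came from GENCODE M21 (GRCm38). The fit was tested on simulated data.

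A few genes are not reported here. The members and lists were chosen with earlier results of these data known. Named genes were to be POU genes, listed genes and the 3 nearest in course to Pou5f1 and to Pou3f1. Alternatives were 3 scalings, 2 filters, DESeq2 1.42.0, limma voom (limma 3.58.1), unrounded counts, a replicate block, a threshold of 0.01, glmTreat for members and leaving out each library. Of the 5 genes listed as POU coactivators 3 were in the table under the symbol used.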

Additional observations from a re-analysis of the deposited data

How the results depend on the processing

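The count of changed genes was 9345, and between 7810 (threshold of 0.01) and 9792 (every gene with a count) in the other fits. Scaling by library size alone put 39.9% of called genes higher at 48 h, against 49.2%. Of the members' values under alternatives, 134 kept direction and call and 9 lost the call. These 9 are the losses of Pou3f2 and Pou3f3 given above, and those against a 1.2-fold change of Pou5f1, Pou2f1 and Pou3f2 (adjusted p = 1.0, 1.0 and 0.0979). No member's value changed sign. Among POU genes that are not members, the count called was 1, and became 2 with DESeq2 or with every gene with a count tested, 0 with at least 10 counts in every sample, and 1 to 2 when a library was left out. For SNAPc it was 2, and became 1 with every gene with a count, DESeq2 or limma voom, and 1 to 3 when a library was left out (3 without replicate 3 of 48 h, where Snapc1 was called at -0.29). The fall of the Pou5f1 share, -6.41 percentage points of counts, was -2.44 per longest coding transcript, and per exon union (-3.78) or median coding transcript (-1.81), both chosen after seeing the data. This shift follows from dividing by length. The ratio of Pou3f1 to Pou5f1 rose by between 3.76 and 3.95 (log2) when a library was left out. Of markers not called, Cd79a (-0.10) ranged from -0.17 to 0.0554 (without replicate 3 of 24 h) when a library was left out, and Pax5 (-0.11) from -0.36 to 0.11, with 0.06, 0.01 and 0.11 without replicates 2 and 3 of 24 h and 2 of 48 h. Depth limits Pou3f2, Pou3f3 and the POU genes with under 30 counts in a library.

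With the replicate block 9235 genes changed, no member's call differed, and the ratio rose by 3.88 (exact sign permutation p = 0.25, the smallest 3 pairs allow). Deviations of same-numbered libraries from their group means correlated at -0.05, -0.04 and -0.01. Whether libraries with the same number shared a culture or a batch was not tested.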

Other observations

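The nearest tested gene of each POU gene was read for its own change, a comparison added after the data were seen. Utp11, 17.5 kb from Pou3f1 on the opposite strand, rose by 0.45 on the log2 scale (adjusted p = 3.86e-06), against 3.79 for Pou3f1. Fbxl4, 48.7 kb from Pou3f2, and Mrps9, 148.1 kb from Pou3f3, had log2 fold changes of -0.0025 and 0.01 (adjusted p = 0.985 and 0.924). Zfp574, 3.9 kb from Pou2f2, had -0.11, where Pou2f2 rose by 1.86. Tmem136, 7.4 kb from Pou2f3, had -0.41, where Pou2f3 had -2.02. Creg1, 89.8 kb from Pou2f1, had -1.13, where Pou2f1 rose by 0.17. Distances are between gene bodies in GENCODE M21 on GRCm38.

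Markers of other cells that an embryonic stem cell culture could hold were summed, and most were low. The 7 primitive endoderm markers summed to between 9.36 and 11.1 CPM at 24 h and between 5.67 and 6.44 CPM at 48 h, and of 3 tested only Gata4 was called, with a log2 fold change of -1.38. The 7 trophoblast markers went from between 44.6 and 46.1 CPM to between 26.9 and 31.5 CPM, with all 3 tested genes (Eomes, Plet1 and Tfap2a) lower and Cdx2 at no more than 1 count in a library. The 7 fibroblast feeder markers summed to between 2.73 and 4.24 CPM at 24 h and between 2.03 and 2.62 CPM at 48 h. Lum and Postn were at 0 in every library, Col1a1 and Pdgfrb fell, and Dcn had 0 counts in each 24 h library and 23, 25 and 32 at 48 h.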
